A study of Mus musculus with 10 samples.

Results

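Accessible chromatin at 10 genes of macrophages and dendritic cells was examined in mouse thymic epithelial cell (TEC) libraries: Adgre1, Csf1r, Spi1, Itgax, Cx3cr1, Lyz2, Mpeg1, Flt3, Xcr1 and Clec9a. Each locus was the RefSeq span of the gene on mouse build mm10 with 10 kb on each side, and every called peak that overlapped it was taken. The genes are 10 of 21883 protein-coding genes in the gene table. Their windows held 225 of 882163 called peaks, which merged into 95 of 351411 regions over all libraries. The genes were selected on their called peaks in the embryonic and day 6 lists, the values described here, so that contrast is not tested at these loci.

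Macrophages and dendritic cells are blood-derived cells that live beside the epithelium in the thymus. Thymic macrophages clear dying thymocytes, and thymic dendritic cells present antigens to developing T cells together with the medullary epithelium. Both arise from progenitors that depend on the transcription factor PU.1, and open chromatin at genes such as those examined here is a familiar mark of these cells. Thymic epithelium belongs to another lineage, which is built on the transcription factor Foxn1.

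ATAC-seq marks open chromatin by the insertion of sequencing adapters by a transposase. All 10 libraries came from wild-type C57BL/6 mice with no treatment named, and thymi were digested with Liberase TH and DNase before TEC were sorted. There were 2 libraries each at embryonic day 15 (E15) and embryonic day 17 (E17), and 2 each of the day 6 populations labelled mTEC4, mTEC1 and mTEC2, which gave 4 embryonic and 6 day 6 libraries. The labels do not say whether replicates came from separate animals or pools, so the spread between them may be technical. Fraction names inside the peak lists differ from those in the titles, and the titles of the embryonic libraries name no fraction. Age and sorted population therefore cannot be told apart where embryonic and day 6 libraries are compared, and "ages" below stands for both. The libraries are bulk samples, so a few blood cells with open loci and many cells with weakly open loci cannot be told apart.

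Promoter sequences are shown for 4 genes, as the 250 bases before the start site from RefSeq on GRCm38.p6 (mm10), read 5′ to 3′ on the gene's strand. Capitals mark bases under a called peak in at least 1 library. Flt3 (chr5:147400490-147400739, minus strand) and Mpeg1 (chr19:12460520-12460769, plus strand) are shown because they were the genes with a called base there. Lyz2 (chr10:117282273-117282522, minus strand) held the matches to the PU.1 core that are described with the motifs, and Xcr1 (chr9:123862030-123862279, minus strand) lies near the strongest region of the set.
Flt3: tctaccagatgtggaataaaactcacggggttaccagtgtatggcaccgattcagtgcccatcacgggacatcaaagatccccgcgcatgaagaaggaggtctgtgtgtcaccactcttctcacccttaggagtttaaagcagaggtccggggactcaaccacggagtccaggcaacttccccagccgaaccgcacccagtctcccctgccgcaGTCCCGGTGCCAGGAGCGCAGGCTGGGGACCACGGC
Mpeg1: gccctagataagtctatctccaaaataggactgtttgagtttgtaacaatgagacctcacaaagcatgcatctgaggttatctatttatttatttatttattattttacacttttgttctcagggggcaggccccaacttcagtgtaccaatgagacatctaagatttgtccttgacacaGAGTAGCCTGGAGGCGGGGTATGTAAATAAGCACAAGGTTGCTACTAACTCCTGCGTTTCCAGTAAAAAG
Lyz2: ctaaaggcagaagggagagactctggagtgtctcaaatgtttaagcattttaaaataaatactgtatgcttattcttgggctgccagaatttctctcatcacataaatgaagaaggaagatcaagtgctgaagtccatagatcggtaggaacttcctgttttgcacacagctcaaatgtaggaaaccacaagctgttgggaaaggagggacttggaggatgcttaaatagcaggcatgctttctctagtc
Xcr1: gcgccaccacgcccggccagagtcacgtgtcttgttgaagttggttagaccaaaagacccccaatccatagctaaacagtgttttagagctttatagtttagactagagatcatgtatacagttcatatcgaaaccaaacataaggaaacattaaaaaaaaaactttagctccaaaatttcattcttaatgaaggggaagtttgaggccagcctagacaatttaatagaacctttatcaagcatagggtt

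The promoter table held 7 of the 10 genes, without Adgre1, Csf1r and Spi1. In the full window of 300 bp, which adds 50 bp after the start site, a peak was called in at least 1 library at 2 of the 7 genes, against 62.9% of 14730 genes in the table. Flt3 was called in all 4 embryonic libraries and in mTEC4 replicate 2 and mTEC1 replicate 2. Mpeg1 was called in E15 replicate 2 and E17 replicate 2. A call in all 4 embryonic libraries was found at 54.4% of the table's genes and, of the 7, at Flt3. No peak touched the windows of Itgax, Cx3cr1, Lyz2, Xcr1 or Clec9a, where the nearest region lay 2336, 1699, 3459, 2004 and 8330 bp from the start site.

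Motifs were searched on both strands of the 250 bases. The ETS core GGAA, the letters at the centre of PU.1 sites, occurred in all 7 promoters, as in 93.13% of all promoters in the table. The longer PU.1 core AGGAAG, which contains GGAA, had 2 matches in Lyz2 and none in the other 6 genes, and 28.15% of all promoters held it. The composite ETS-IRF element, which also contains GGAA, and the C/EBP site TTGCNNAA had no match in the 7, and were in 2.33% and 9.21% of all promoters. The TATA box letters TATAAA had 1 match each in Xcr1 and Clec9a (13.22% of all promoters). Both matches were on the strand opposite to the gene, starting at −160 and −226 from the start site. The AP-1 site TGANTCA had 1 match in Itgax (6.27%).

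The peak lists set the frame for every count. They held 86237 to 151646 peaks in the embryonic libraries and 40858 to 101917 in the day 6 libraries, and a protein-coding gene window held a mean of 4.30 ± 0.923 regions (SD, n = 4) in embryonic and 2.41 ± 0.636 (SD, n = 6) in day 6 libraries. Peak strength is given as the authors' −log10 q, where a higher value is a stronger call and q was at most 0.1 in the lists. The value depends on the depth of its own list, so a higher value in another library does not show more open chromatin there. The share of all peaks with −log10 q of at least 5 was 45.0% ± 3.16 (SD, n = 4) in embryonic and 10.7% ± 2.78 (SD, n = 6) in day 6 libraries. Read depth is unknown, and a missing peak means only that none was called. Of 16 thymic epithelial genes, 10 had a region in every library, among them Epcam, Krt8 and Aire. Foxn1 was not among them, with 7 to 10 regions in the embryonic libraries and 0 in both mTEC4 libraries.

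Together the 10 windows held 22 and 24 regions in E15, 19 and 33 in E17, 19 and 20 in mTEC4, 21 and 21 in mTEC1, and 30 and 14 in mTEC2. The means were 24.5 ± 6.03 (SD, n = 4) in embryonic and 20.8 ± 5.19 (SD, n = 6) in day 6 libraries, and the groups overlapped. The median gene of the 10 had a day 6 minus embryonic difference of −0.0833 regions, against −1.25 over all 21022 protein-coding genes with a region. The day 6 mean was the higher for 4 of the 10 (Adgre1, Itgax, Cx3cr1 and Xcr1) and for 19.6% of all genes. None of the 10 had groups that did not overlap, against 0.171% of all genes higher in day 6 and 16.3% higher in embryonic libraries.

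**Figure D1:**
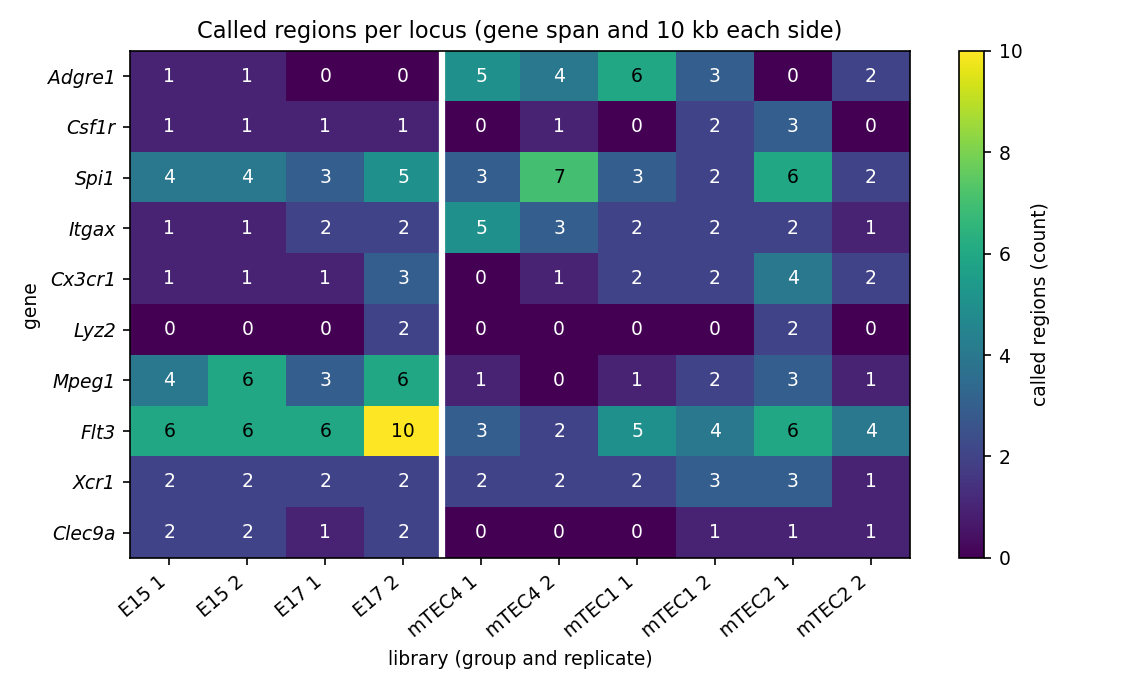
Number of called regions in the window of each gene (rows) in each of the 10 libraries (columns), with the shade and the printed value giving the count. Adgre1 is filled mainly in the day 6 columns, with 3 to 6 regions in mTEC4 and mTEC1, whereas Mpeg1 and Clec9a are filled mainly in the embryonic columns.

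Lists of different length were also compared after each count was divided by the library's mean regions per protein-coding gene, a value called scaled here. The scaled total over the 10 genes, per gene, was 0.539 and 0.607 in E15, 0.537 and 0.585 in E17, 0.953 and 0.834 in mTEC4, 0.911 and 0.831 in mTEC1, and 0.846 and 0.834 in mTEC2. Every library was below 1, so these windows held fewer regions than the mean gene window, and all 6 day 6 libraries were above all 4 embryonic ones. The choice of genes used these counts, so the separation is a description. Without Adgre1 the highest embryonic library was at 0.650 and the lowest day 6 library at 0.723, so the ages were still apart. The scaled mean was higher in day 6 libraries for 8 of the 10 genes, against 56.9% of all genes. Scaled counts did not overlap, with day 6 higher, at 1 gene (Xcr1), against 3.78% of all genes, and with embryonic higher at 1 gene (Mpeg1), against 4.7%. Both gaps were narrow. The highest embryonic and lowest day 6 values at Xcr1 were 0.565 and 0.596, and its unscaled means were 2.0 and 2.17 regions. The lowest embryonic and highest day 6 values at Mpeg1 were 0.848 and 0.846.

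The separation of scaled totals was not kept when every list was limited to its 40858 strongest peaks. The scaled totals were then 0.482 and 0.426 in E15, 0.523 and 0.584 in E17, 0.954 and 0.422 in mTEC4, 0.409 and 0.577 in mTEC1, and 0.712 and 0.833 in mTEC2. The groups overlapped, with mTEC4 replicate 1 and both mTEC2 libraries above the embryonic ones and mTEC4 replicate 2 and mTEC1 replicate 1 below them. The unscaled totals at equal length were 9, 8, 10 and 11 in embryonic libraries and 13, 7, 6, 10, 13 and 14 in day 6 libraries, in the order given above.

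The strength of the calls differed between the ages at these loci as it did over the lists. Of 101 embryonic peaks at the 10 loci, 47 had −log10 q of at least 5, and of 124 day 6 peaks, 9 did. Per library this share was 45.9% ± 7.66 (SD, n = 4) in embryonic and 7.01% ± 2.43 (SD, n = 6) in day 6 libraries, beside the 45.0% and 10.7% over all peaks. Of the 9 strong day 6 peaks, 6 belonged to a single region that is called in all 10 libraries and overlaps the start of Fyco1, a neighbour of Xcr1. The other 3 were at Spi1. The median percentile of the peaks within their own lists was 50.2 ± 5.46 (mean and SD over libraries, n = 4) in embryonic and 40.6 ± 11.2 (n = 6) in day 6 libraries.

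**Figure D2:**
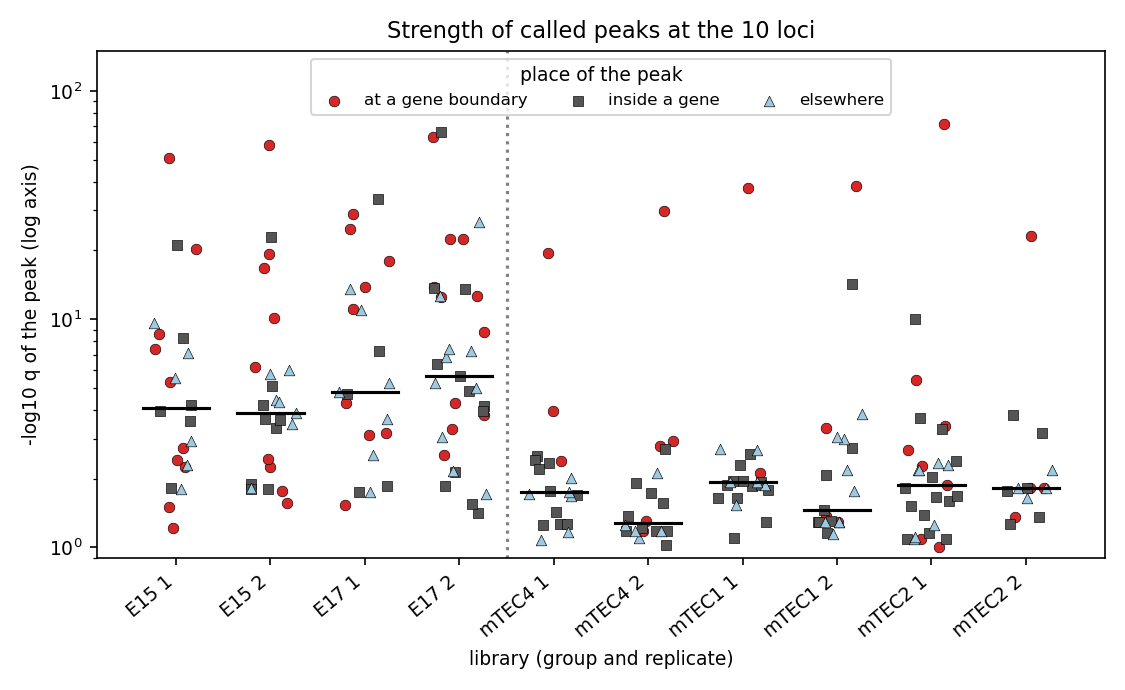
Strength of each called peak at the 10 loci as −log10 q on a log axis, by library, with marks for the place of the peak and a bar at the library's median. Marks are spread sideways for view. Most day 6 peaks lie below 5, and the highest point of each day 6 library, from 19.4 to 71.5, is the region at the start of Fyco1.

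Each region was sorted by place: at a boundary if no more than 1 kb separated it from an end of some protein-coding gene, otherwise inside a gene span or elsewhere. Of the 95 regions, 14 were at a boundary, 51 inside a gene and 30 elsewhere. The boundary share was 14.7%, against 12.0% of the 188793 regions in the window of any protein-coding gene. Of the 14 boundary regions, 10 were called in at least 3 libraries (71.4%, against 71.6% of boundary regions in all gene windows) and 9 in both ages (64.3%, against 63.3%). Inside genes, 35 of 51 regions were called in 1 library (68.6%, against 52.6% of all regions inside genes) and 36 in day 6 libraries only (70.6%, against 42.7%).

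At the 10 loci, boundary calls made up 43.9% ± 6.08 (SD, n = 4) of the region calls of an embryonic library and 22.1% ± 7.92 (SD, n = 6) of those of a day 6 library. Over all gene windows the order was the opposite, with 29.6% ± 3.64 and 36.1% ± 4.78. These shares use the place of the merged region, which can reach a boundary that a single peak in it does not. By the place of each peak the shares at the 10 loci were 39.4% ± 5.69 and 20.9% ± 7.47, beside 15.8% ± 2.52 and 16.5% ± 4.21 of all peaks. The shares of all peaks also count peaks outside every gene window, so their level cannot be compared with that at the loci. Regions inside the spans of the 10 genes numbered 8, 9, 6 and 12 in embryonic and 11, 13, 13, 10, 16 and 6 in day 6 libraries. In the flanks there were 14, 15, 13 and 21 in embryonic and 8, 7, 8, 11, 14 and 8 in day 6 libraries. The span counts overlapped widely and the flank counts only at their edges, at 13 and 14. Of the 14 boundary regions, 11 were at an end of the gene itself, at Spi1, Mpeg1, Flt3, Xcr1 and Clec9a, and the other 3 lay only at the ends of the neighbours Itgam, Dtx4 and Urad. The region counted at Xcr1 also overlaps the start of the neighbour Fyco1 and lies 9795 bp from the Xcr1 start site.

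**Figure D3:**
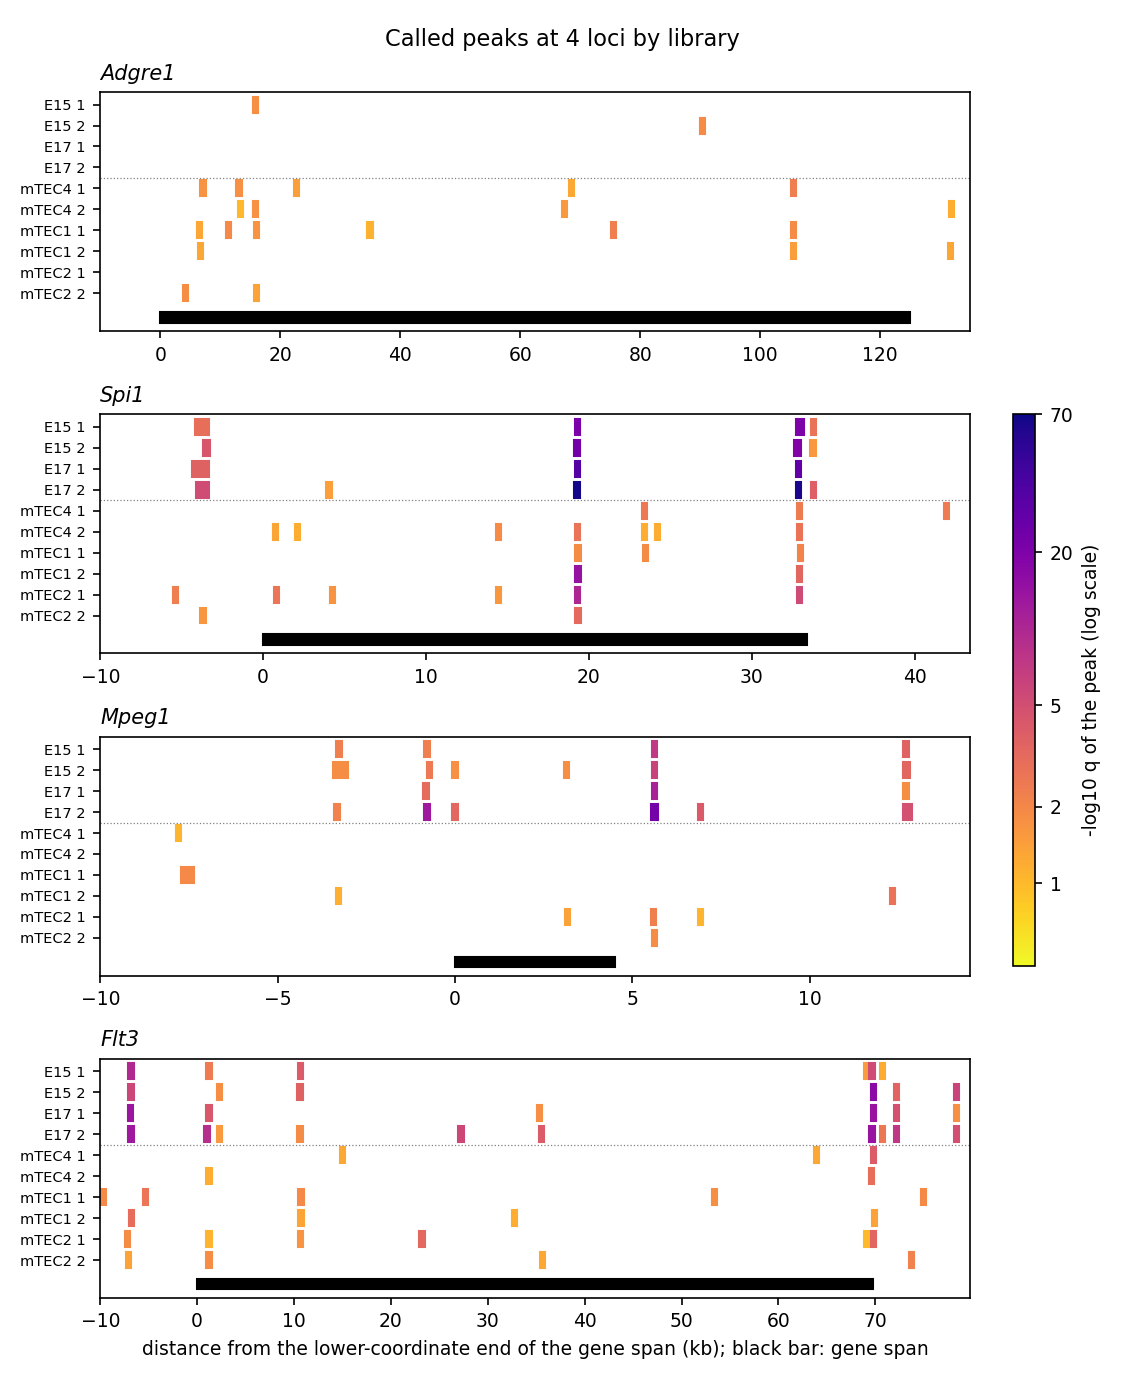
Called peaks at Adgre1, Spi1, Mpeg1 and Flt3, with the distance in kb from the lower-coordinate end of the gene on the horizontal axis, 1 line per library, colour for −log10 q on a log scale and a black bar for the gene. At Spi1 and Flt3 the same positions recur over the embryonic libraries, and at Adgre1 the day 6 peaks are scattered over the gene at values of at most 2.34. Narrow peaks are drawn wider than they are so that they can be seen.

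Of the 95 regions, 57 were called in day 6 libraries only (60.0%, against 40.4% of the regions in all gene windows), 16 in embryonic libraries only (16.8%, against 32.2%) and 22 in both (23.2%, against 27.4%). Exactly 1 library called 52 of them (54.7%, against 48.9%), and at least 3 libraries called 29 (30.5%, against 37.9%). The genes were chosen on these calls, so the shares are a description. All 4 embryonic and no day 6 library called 3 regions (3.16%, against 5.31%), at Csf1r and Mpeg1. No region had calls from all 6 day 6 libraries without an embryonic call. Replicates shared 17 of 29 regions in E15 and 19 of 33 in E17, but 7 of 32 in mTEC4, 8 of 34 in mTEC1 and 7 of 37 in mTEC2. The shares, 58.6%, 57.6%, 21.9%, 23.5% and 18.9%, stand beside those over all regions (66.7%, 51.2%, 19.9%, 20.1% and 22.0%).

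Adgre1 encodes F4/80, an adhesion receptor that marks mouse macrophages (chr17:57358581-57483529). Its window held 1 and 1 regions in E15, 0 and 0 in E17, 5 and 4 in mTEC4, 6 and 3 in mTEC1, and 0 and 2 in mTEC2. The means were 0.5 ± 0.577 (SD, n = 4) and 3.33 ± 2.16 (SD, n = 6). The mTEC4 and mTEC1 libraries were all above the embryonic ones, and mTEC2 replicate 1, the longest day 6 list, had none. Of its 15 regions, 13 were called in day 6 libraries only, 11 in 1 library, and 0 lay at a boundary.

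The strongest of the 20 day 6 peaks at Adgre1 had −log10 q of 2.34. The region at chr17:57374041-57374325, inside the gene, was called in E15 replicate 1 (1.81), mTEC4 replicate 2 (1.73), mTEC1 replicate 1 (1.65) and mTEC2 replicate 2 (1.35). The mTEC4 peak there did not overlap the mTEC1 or mTEC2 peak, and the E15 peak joined them. The region at chr17:57463758-57463974 was called in mTEC4 replicate 1 (2.34), mTEC1 replicate 1 (1.87) and mTEC1 replicate 2 (1.46). No other Adgre1 region was called in 3 libraries. Without Adgre1 the totals were 21, 23, 19 and 33 in embryonic and 14, 16, 15, 18, 30 and 12 in day 6 libraries, with means of 24.0 ± 6.22 and 17.5 ± 6.44. Inside the spans of the other 9 genes the means were 8.25 ± 2.63 and 8.5 ± 4.18.

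Csf1r encodes the receptor for colony-stimulating factor 1, on which most tissue macrophages depend (chr18:61105572-61131139). Its window held 1 region in each embryonic library, 0 and 1 in mTEC4, 0 and 2 in mTEC1, and 3 and 0 in mTEC2. The embryonic calls were all the same region, chr18:61096461-61097087, at 5.54 and 3.88 in E15 and 5.26 and 7.23 in E17, and no day 6 library called it. It lay 8485 bp from the nearest gene end and outside genes. Pdgfrb, a gene of the mesenchyme list below, lies on its other side, so the region cannot be assigned to Csf1r alone. The 6 other regions were each called in a single day 6 library, at no more than 3.71.

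Cx3cr1 encodes the fractalkine receptor of monocytes and some macrophages (chr9:120048683-120068296, minus strand). Counts were 1 and 1 in E15, 1 and 3 in E17, 0 and 1 in mTEC4, 2 and 2 in mTEC1, and 4 and 2 in mTEC2. A region beyond its start site, chr9:120073239-120073458, was called at 7.09 and 4.33 in E15 and at 11.0 and 26.6 in E17. It was also called in mTEC1 replicate 2 (2.98) and in mTEC2 (2.29 and 1.82), and mTEC4 had no call. A region inside the gene, chr9:120054887-120055135, was called in mTEC1 replicate 1 (1.65) and in mTEC2 (1.83 and 3.80).

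Spi1 encodes PU.1, the ETS factor that directs macrophage and dendritic fate and is also present in the earliest thymocyte progenitors (chr2:91082374-91115759). Its window held 4 and 4 regions in E15, 3 and 5 in E17, 3 and 7 in mTEC4, 3 and 2 in mTEC1, and 6 and 2 in mTEC2. The means, 4.0 ± 0.816 and 3.83 ± 2.14, were close, and the groups overlapped. In both E17 libraries the strongest peak at the 10 loci was at Spi1, and in both E15 libraries it was the region at the start of Fyco1.

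Inside Spi1, the region chr2:91101482-91101679 was called at 21.2 and 22.9 in E15 and 33.7 and 66.2 in E17, at percentiles 96.9, 96.9, 99.5 and 99.9 of those lists. It was called in 5 of 6 day 6 libraries, at 2.69 in mTEC4 replicate 2, 1.86 and 14.3 in mTEC1, and 9.98 and 3.18 in mTEC2. In mTEC1 replicate 2 its percentile was 99.3, and in mTEC1 replicate 1 it was 40.2. At the end of the gene with the higher coordinates, chr2:91114988-91115571 was called at 20.3, 19.3, 29.0 and 62.9 in embryonic libraries. The day 6 calls there were 2.40 and 2.78 in mTEC4, 2.12 and 3.33 in mTEC1 and 5.42 in mTEC2 replicate 1.

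Another 3 Spi1 regions were called in at least 3 libraries. The region chr2:91078007-91079097 outside the gene was called in all 4 embryonic libraries (2.92, 4.44, 3.66 and 5.26) and in mTEC2 replicate 2 (1.65). The region chr2:91115978-91116156 was called in both E15 libraries (2.73 and 1.57) and E17 replicate 2 (3.80). The region chr2:91105637-91105783, inside the gene, was called in mTEC4 (2.52 and 1.18) and mTEC1 replicate 1 (1.87) and in no embryonic library.

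Lyz2 encodes lysozyme M, an antibacterial enzyme of macrophages and neutrophils (chr10:117277541-117282272, minus strand). It had 2 regions in E17 replicate 2, at 1.71 and 6.35, and 2 in mTEC2 replicate 1, both at 2.19, and none in the other 8 libraries. The 4 regions were all different, and the libraries with calls are the longest list of each age. None of them lay inside Lyz2. The call at 6.35 was inside the neighbour Lyz1, 8297 bp from the Lyz2 start site.

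Mpeg1 encodes perforin-2, a pore-forming protein of macrophages that acts on engulfed bacteria (chr19:12460770-12465285, plus strand). It had 4 and 6 regions in E15, 3 and 6 in E17, 1 and 0 in mTEC4, 1 and 2 in mTEC1, and 3 and 1 in mTEC2. The means were 4.75 ± 1.5 and 1.33 ± 1.03, and the groups met at 3 regions. Just before its start site, chr19:12459875-12460088 was called in all 4 embryonic libraries (2.26, 2.45, 3.10 and 12.6) and no day 6 library. The region over the start site, chr19:12460700-12460869, whose bases are in capitals in the promoter above, was called in E15 replicate 2 (1.77) and E17 replicate 2 (3.31).

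Other Mpeg1 regions lay in its flanks. The region chr19:12466297-12466503 overlapped the end of the neighbour Dtx4 and was called at 7.37, 6.16, 11.1 and 22.6 in embryonic libraries and at 2.27 and 1.82 in mTEC2. The region chr19:12473391-12473648, inside Dtx4, was called in embryonic libraries only (3.60, 3.35, 1.85 and 4.84). The region chr19:12457343-12457761 was called in E15 (2.29 and 1.83), E17 replicate 2 (2.17) and mTEC1 replicate 2 (1.15). Calls at Mpeg1 and the end of Dtx4 share a short interval and cannot be assigned to either gene.

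Itgax encodes CD11c, the integrin subunit used to mark dendritic cells (chr7:128129526-128150657, plus strand). It had 1 and 1 regions in E15, 2 and 2 in E17, 5 and 3 in mTEC4, 2 and 2 in mTEC1, and 2 and 1 in mTEC2. The groups overlapped, and both mTEC4 libraries were above every embryonic one. The region chr7:128123845-128125376, in the interval before the gene, was called in 5 of 6 day 6 libraries and no embryonic library, at 1.72 and 2.12 in mTEC4, 1.88 and 1.77 in mTEC1 and 1.83 in mTEC2 replicate 2. It was the most widely shared region of the 57 called in day 6 libraries only.

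Nearby, chr7:128126067-128126721 was called in E17 (2.53 and 6.83) and mTEC4 replicate 1 (1.17). The region chr7:128118958-128119782, close to the end of Itgam, was called in E15 replicate 2 (2.26), E17 (3.16 and 4.30) and mTEC2 replicate 1 (2.40). The mTEC2 replicate 1 peak itself lay outside the 10 kb window. It enters the region counts of Itgax, because the merged region overlaps the window, but not the 225 peaks. Itgam encodes CD11b, another myeloid integrin subunit, so these flank regions have myeloid genes on both sides.

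Flt3 encodes the receptor for FLT3 ligand, which drives the growth of dendritic cells and their progenitors (chr5:147330741-147400489, minus strand). It had 6 and 6 regions in E15, 6 and 10 in E17, 3 and 2 in mTEC4, 5 and 4 in mTEC1, and 6 and 4 in mTEC2. The means were 7.0 ± 2.0 and 4.0 ± 1.41, and the groups met at 6. The region over its start site, chr5:147400108-147400525, was called in 8 of 10 libraries, at 5.31 and 16.7 in E15, 13.9 and 13.9 in E17, 3.97 and 2.92 in mTEC4, 1.37 in mTEC1 replicate 2 and 3.41 in mTEC2 replicate 1. Its upstream edge gives the capitals in the Flt3 promoter above.

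Of the 20 Flt3 regions, 10 were called in 1 library. Within 1 kb of the end of the gene with the lower coordinates, chr5:147331498-147332083 was called in 6 libraries, with E17 at 4.31 and 8.80, E15 replicate 1 at 2.42 and day 6 values of 1.09 to 1.82. Inside the gene, chr5:147341092-147341532 was also called in 6 libraries, at 3.98, 3.66 and 1.86 in embryonic and 1.94, 1.31 and 1.68 in day 6 libraries. The region chr5:147365838-147366255 was called in E17 (1.76 and 3.97) and mTEC2 replicate 2 (1.27). At all 3 regions, calls came from both ages.

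Beyond the Flt3 start site, chr5:147402653-147402775 (3.48 in E15 replicate 2, 4.79 and 7.44 in E17) and chr5:147408840-147408938 (6.01, 1.76 and 4.99 in the same libraries) had no day 6 call. On the other side, near the end of Urad, chr5:147323294-147323776 was called at 9.58, 5.76, 13.6 and 12.7 in embryonic libraries. In day 6 libraries it was called in mTEC1 replicate 2 (3.05) and mTEC2 (1.88 and 1.35). The mTEC2 replicate 1 peak in it did not overlap the embryonic peaks.

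Xcr1 encodes the chemokine receptor of conventional type 1 dendritic cells (chr9:123852315-123862029, minus strand). Every embryonic library had 2 regions, and the day 6 libraries had 2 and 2 in mTEC4, 2 and 3 in mTEC1, and 3 and 1 in mTEC2. The region chr9:123850879-123852234 was called in all 10 libraries, at 50.9 and 58.1 in E15, 24.8 and 22.5 in E17, 19.4 and 29.7 in mTEC4, 37.5 and 38.5 in mTEC1, and 71.5 and 23.1 in mTEC2. It overlaps the start of Fyco1, a minus-strand neighbour and a broadly expressed gene of vesicle transport. Its distance to the Xcr1 start site is 9795 bp, so this region describes the neighbour's end of the window.

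Among the other Xcr1 regions, chr9:123845174-123845466, inside Fyco1, was called at 8.25, 4.22, 7.27 and 13.7 in embryonic libraries and 1.15 in mTEC2 replicate 1. The region chr9:123864862-123864983, beyond the Xcr1 start site, was called in mTEC1 (2.71 and 3.83) and mTEC2 replicate 1 (1.25).

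Clec9a encodes a receptor for dead cells on the same dendritic subset (chr6:129408862-129424764, plus strand). It had 2 and 2 regions in E15, 1 and 2 in E17, 0 and 0 in mTEC4, 0 and 1 in mTEC1, and 1 and 1 in mTEC2. The means were 1.75 ± 0.5 and 0.5 ± 0.548, and the groups met at 1. The region chr6:129422859-129423983, near the end of the gene, was called at 8.59 and 10.2 in E15, 18.0 and 12.5 in E17 and 1.30 in mTEC1 replicate 2. The region chr6:129400072-129400532 was called in E15 (4.19 and 5.07), E17 replicate 2 (13.5) and mTEC2 replicate 1 (1.09). Both regions also lie within the annotated span of Clec12b, so they cannot be assigned to Clec9a alone.

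Other macrophage and monocyte genes (30) and other dendritic genes (20) were tested with all genes, by an exact two-sided permutation test of the region counts of 4 embryonic against 6 day 6 libraries. The test treats each library as a separate unit, although they form 5 groups of 2 libraries. If the 2 libraries of a group are technical replicates, its p values are too small. With Benjamini-Hochberg adjustment over 21022 genes, 19.1% of all genes were called higher in embryonic and 0.128% higher in day 6 libraries. In the macrophage list, 3 of 30 were called higher in embryonic libraries and 0 in day 6 libraries. In the dendritic list the counts were 3 and 0 of 20, and among 10 pan-haematopoietic genes they were 0 and 0. At an unadjusted p under 0.05, 5, 7 and 2 genes of these lists were higher in embryonic and 1 (Mrc1), 0 and 1 in day 6 libraries, beside 39.1% and 1.01% of all genes. The median differences, day 6 minus embryonic, were −0.958, −1.54 and −0.792 regions, beside −1.25 over all genes.

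The called macrophage genes included Aif1, a calcium-binding protein of macrophages, and Cebpa, a factor of myeloid progenitors. Aif1 had 5.75 ± 0.5 regions in embryonic and 2.33 ± 1.03 in day 6 libraries, and Cebpa 3.75 ± 0.5 and 1.5 ± 0.548. The called dendritic genes were Irf8, a factor required for type 1 dendritic cells, with 5.25 ± 0.5 and 1.67 ± 0.516, Id2 with 4.75 ± 0.957 and 2.83 ± 0.408, and Wdfy4, which acts in cross-presentation, with 16.8 ± 5.74 and 4.83 ± 3.76 (SD, n = 4 and 6). The adjusted p of the exact permutation test was 0.0343 for Aif1, Cebpa, Irf8 and Id2 and 0.0497 for Wdfy4, and each of the first 4 was higher in every embryonic library than in every day 6 library. Id2 and Cebpa are also active outside the myeloid lineage.

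With scaled counts the exact permutation test called 0 of 21022 genes (0.0%) in either direction, with 2276 higher in embryonic and 2444 higher in day 6 libraries at an unadjusted p under 0.05. The smallest p the test can give, 0.00476, passes the adjustment only if many genes share it. The 0 calls therefore do not show that no gene differed on this scale. On the scaled counts the groups did not overlap, with day 6 higher, for Mrc1, Tyrobp and Itgam of the 30 macrophage genes. The same held for Vav1 of the 10 pan-haematopoietic genes, and for 3.78% of all genes. Without scaling the groups overlapped at each of these named genes. Tyrobp had 1 region in each embryonic library and 1 or 2 in the day 6 libraries (mean 1.33 ± 0.516). The windows of Itgam and Itgax overlap, so the Itgam counts include flank regions described above at Itgax and are not separate from them. Irf8 was the gene of these lists that stood apart with embryonic higher, as did 4.7% of all genes. The scaled total per gene of the macrophage list was 0.661 ± 0.0171 (SD, n = 4) in embryonic and 0.773 ± 0.0547 (SD, n = 6) in day 6 libraries, with no overlap, and that of the dendritic list 1.08 ± 0.0901 and 0.937 ± 0.164. The dendritic list thus had the lower day 6 mean, with overlapping groups.

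Markers of other cell types were counted in the same way. The 14 thymocyte genes had 37 to 60 regions in embryonic and 21 to 75 in day 6 libraries, and scaled totals of 0.755 ± 0.0319 and 1.27 ± 0.326. Their scaled mean was higher in day 6 libraries for 12 of 14, against 56.9% of all genes. No gene of the list was at 0 in every library. The pan-haematopoietic genes had scaled totals of 1.37 ± 0.0978 and 1.64 ± 0.399, and the 16 thymic epithelial genes 1.38 ± 0.0495 and 1.02 ± 0.252. The permutation test called higher in embryonic libraries 0 of 14 thymocyte, 1 of 8 B cell, 0 of 8 neutrophil and mast cell, 1 of 7 erythroid, 1 of 7 endothelial, 3 of 8 mesenchymal and 5 of 16 thymic epithelial genes, and it called none of them higher in day 6 libraries. Over all genes it called 19.1% higher in embryonic and 0.128% higher in day 6 libraries. At an unadjusted p under 0.05, embryonic libraries were higher for 3 thymocyte, 3 B cell, 3 neutrophil and mast cell and 3 erythroid genes. They were also higher for 1 endothelial, 4 mesenchymal and 12 thymic epithelial genes. In day 6 libraries 3 thymocyte genes were higher. They include Cd3d and Cd3g, whose windows overlap, so their counts are not separate. Over all genes, 39.1% were higher in embryonic and 1.01% in day 6 libraries at that level. None of the B cell, neutrophil and mast cell, erythroid, endothelial, mesenchymal or epithelial genes was higher in day 6 libraries at that level. The part of these cell types in the counts at the 10 loci was not tested.

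**Figure D4:**
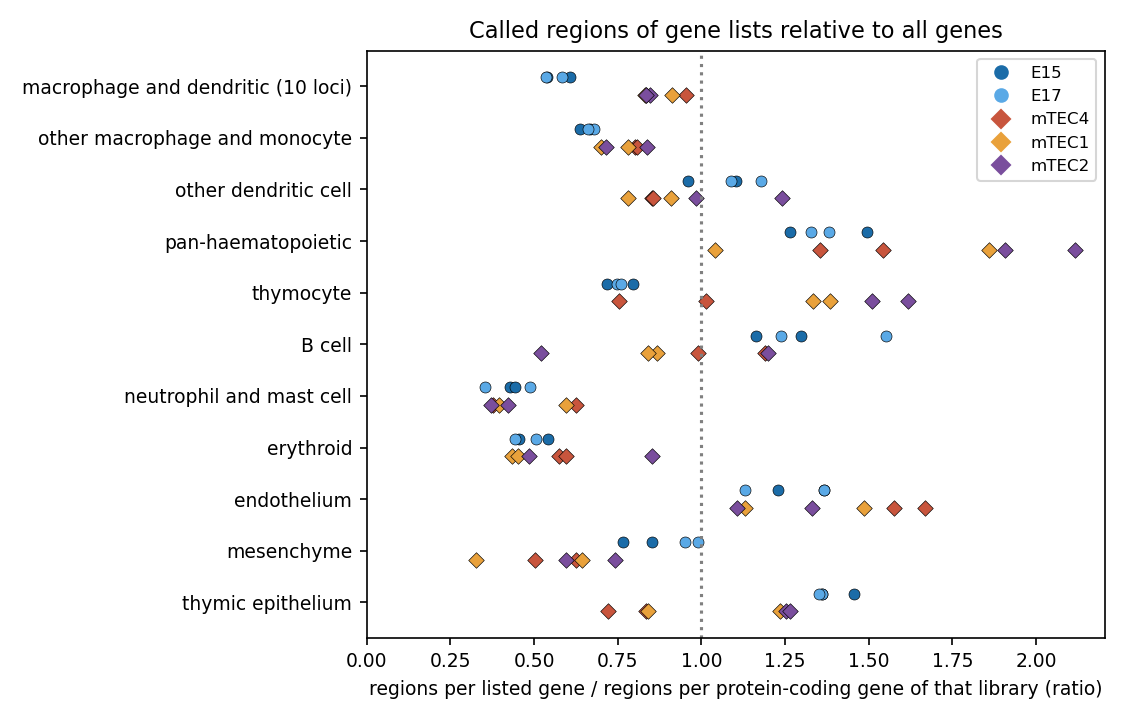
Scaled region total per gene (horizontal axis, where 1 is the mean of all protein-coding genes) for the 10 loci and each marker list (rows), with 1 mark per library coloured by group. The 10 loci lie below 1 in every library, as do the macrophage, neutrophil and mast cell, erythroid and mesenchyme lists, and thymocyte genes spread from 0.718 to 1.62.

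The 5 genes whose counts over the 10 libraries were most like the summed count of the 10 loci were Morn3 (Pearson r = 0.975), Slc9b1 (0.971), Prpf6 (0.969), Spata7 (0.967) and Lrrc8d (0.964). These correlations are over 10 libraries that differ in list length, which all counts share, and are given as a description.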

How the data were processed

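ATAC-seq libraries of sorted TEC, 10 in all, were grouped by their titles. The tools named in the submitters' processing notes are cutadapt, Bowtie2, Picard and MACS2, and the build is mm10. The versions, the order and any shift of read ends are not given in the sources used here. Each library has its own deposited list of broad peaks. Each peak carries a fold enrichment over the caller's background, a ratio deposited by the authors, and a −log10 q, also deposited by the authors. The lists hold no read counts.

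Peaks of all lists that overlapped by at least 1 bp or touched were merged into regions, and regions per RefSeq gene window (span and 10 kb on each side) were counted per library. Merging joins peaks in chains, so libraries that call the same region need not have overlapping peaks. Per gene, the ages were compared by exact two-sided permutation of the libraries (210 arrangements), with Benjamini-Hochberg adjustment over all genes and a threshold of 0.05. Its smallest p is 0.00476, reached by 2922 genes. The test was checked on simulated data. Alternatives were windows of 0, 5 and 50 kb, a −log10 q of at least 2 or 5, equal list lengths, unmerged peaks, scaled counts, place, a replicate block and each library left out. The 10 genes and the lists were chosen with earlier results of these data known. Named were the 10 genes, up to 8 genes of the macrophage, dendritic and pan-haematopoietic lists whose ages did not overlap, the 5 genes most like the summed count, and regions called in at least 3 libraries. Wdfy4, the genes apart on the scaled counts and regions called in fewer libraries fall outside this rule, and these choices followed a look at their values. A gene that the rule names in the macrophage list is not reported here. The work used Python 3.11.15, pandas 2.3.3, numpy 2.4.6, scipy 1.17.1 and matplotlib 3.10.9.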

Additional observations from a re-analysis of the deposited data

Results flagged for a closer look

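Region counts of single libraries stood far from the others of their age in 5 cases. Chance alone flags about 1 in 20 groups, and with whole numbers that often tie, a single step can be flagged. E17 replicate 2, the longest embryonic list, was high at Cx3cr1 with 3.0 regions, at Lyz2 with 2.0 and at Flt3 with 10. E17 replicate 1, the shortest embryonic list, was low at Clec9a with 1.0. In the day 6 libraries, mTEC2 replicate 1, the longest day 6 list, was high at Lyz2 with 2.0. The part of list length in these counts was not tested.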

How the results depend on the processing

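Day 6 minus embryonic difference of the summed count over the 10 loci was −3.67 regions. It was 2.75 with windows of 0 kb, −12.0 with 50 kb, −12.4 and −10.2 with −log10 q of at least 2 and 5, 3.01 with scaled counts, 1.0 with equal list lengths and 2.17 away from gene boundaries, so its sign depends on the window, the scale, the list length and the place. With libraries left out in turn it ran from −5.5 to −0.833, the latter without E17 replicate 2. Without Adgre1, an alternative chosen after seeing the data, it was −6.5.

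Of the 10 genes, 0 had ages apart with day 6 higher, and 1 did with 50 kb windows and with scaled counts, and 0 to 1 with libraries left out. With embryonic higher, 0 were apart, and 3 were with either q threshold, 1 with unmerged peaks, with scaled counts and at boundaries, and 0 to 2 with libraries left out, 2 without E17 replicate 1 or mTEC2 replicate 1.

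Over all genes, 36 were apart with day 6 higher, and 17, 184, 2, 0, 92, 794 and 3 were so with 0 kb, 50 kb, −log10 q of 2, of 5, equal list lengths, scaled counts and boundaries, and 39 to 178 with libraries left out. With embryonic higher, 3418 were apart, and 7641, 8957, 630, 987 and 1522 with −log10 q of 2, of 5, equal lengths, scaled counts and boundaries, and 3429 to 5892 with libraries left out.

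The exact permutation test called 4005 genes higher in embryonic libraries, and 2063, 2580, 8183, 10364 and 12691 with 0 kb, 5 kb, 50 kb, −log10 q of 2 and of 5, 2251 away from boundaries, and 0 with equal lengths, scaled counts or boundaries. It called 27 higher in day 6 libraries, and 7, 17, 220 and 1 with 0 kb, 5 kb, 50 kb and −log10 q of 2, and 0 with −log10 q of 5, equal lengths, scaled counts or boundaries. Of the other macrophage (30) and dendritic (20) genes 6 were called higher in embryonic libraries, and 3, 2, 18, 21 and 30 with 0 kb, 5 kb, 50 kb, −log10 q of 2 and of 5, and 0 with equal lengths, scaled counts or boundaries. In day 6 libraries 0 of them were called higher, and 1 with 0 kb and with 5 kb. With a library left out the calls were 0 to 5034, 0 to 30 and 0 to 11, above 0 only without mTEC2 replicate 1. Fewer arrangements remain in all of these fits, and why this library alone left calls was not tested. A replicate block, which allows 100 arrangements and a smallest p of 0.01, gave 0 calls of each kind. A call needs many genes at the smallest p, so 0 calls under any of these settings does not show that no gene differed. As a check of pairing by replicate number, the difference between replicates 1 and 2 was correlated between groups. The correlations ran from −0.139 to 0.151, with 1 of 10 over 0.1. Day 6 replicates share few regions, so this check could miss a pairing.

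Peaks within 1 kb of a gene boundary made up 28.9% of those at the loci, and 16.9% and 36.4% with limits of 0.5 and 2 kb. Where no cause is named, the cause was not tested. Peak lists without read counts limit every comparison to presence or absence of calls.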
